A study of Sus scrofa with 15 samples.

Results

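Glyceroneogenesis and glycerol transport were read in the backfat of Iberian pigs through 8 genes, PCK1, PCK2, PDK4, GPD1, GPD1L, GK, AQP3 and AQP7. PCK1 was picked because its level was higher in pigs fed wet crude olive cake, so its values in the comparisons with that diet are a description without a test. The other genes were picked by their role around PCK1, with earlier results of these data known, and they were tested. The study lists AQP3 among its WCOC genes and PDK4 among its DOP genes. The p-values and the shares called are therefore not independent of those results. Of the 8 genes, 6 could be matched to an Ensembl gene among the 30477 genes counted, and all 6 passed the filter on low counts. GK and AQP7 were not analysed here.

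White fat cells store fatty acids as triglycerides, and every triglyceride needs a glycerol 3-phosphate backbone. Fat cells hold little glycerol kinase, so they make the backbone from glucose through glycolysis or, when glucose is scarce, from pyruvate, lactate and amino acids through glyceroneogenesis. In this route oxaloacetate is turned into phosphoenolpyruvate by PCK1, the cytosolic phosphoenolpyruvate carboxykinase, and the carbon runs back to dihydroxyacetone phosphate, which GPD1 reduces to glycerol 3-phosphate. The pathway is known for taking fatty acids freed by lipolysis back into triglyceride, and glycerol that is not used leaves the cell through aquaglyceroporins such as AQP7 and AQP3.

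Subcutaneous fat of the dorsal lumbar region was sampled by biopsy from growing Iberian pigs of 3 diets, with 5 pigs and 5 RNA-seq libraries per diet. The control group (C) ate a compound feed, the DOP group ate a compound feed that contained dry olive pulp, and the WCOC group ate a compound feed free of olive by-product plus wet crude olive cake silage offered at will with barley straw. By the methods of the study all compound feeds were restricted. Those of DOP and WCOC were set at a lower share of ad libitum energy intake than that of C. Diet and feeding level therefore cannot be told apart. All animals were of the Iberian breed, and their sex is not given in the sources used here. Each diet was fed in its own pen and the 5 pigs were selected by RNA amount and quality, so diet and pen cannot be told apart and p-values measure the spread between pigs. The libraries held between 22373715 and 34745218 counts on genes. By their run identifiers, C 1 to C 4 and the WCOC libraries came from flow cell A, while C 5 and the DOP libraries came from flow cell B, so that DOP and flow cell overlap almost fully.

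The tissue was read against marker genes before the members. The 6 adipocyte markers, led by ADIPOQ, summed to between 10417 and 13571 CPM (counts scaled to the size of the library) in C, 13023 and 16822 in DOP, and 12375 and 18410 in WCOC. They did not all move in the same direction. In WCOC the means of ADIPOQ (5849 beside 3691 CPM in C), PLIN1, LIPE and LEP lay above C. Those of CIDEC (442 beside 579 CPM) and FABP4 (3362 beside 3431) lay below it. In DOP the mean of LEP lay below C (341 beside 513 CPM), and those of the other adipocyte markers lay above. The 7 skeletal muscle markers, led by ACTA1, summed to 47.5 to 3606 CPM in C, 35.1 to 45951 in DOP and 19 to 702 in WCOC, and TNNI2 among them was at 0 in all 15 libraries. The libraries DOP 2, DOP 4 and DOP 5 stood apart with 10315, 5874 and 45951 CPM of these markers. The 6 epidermis markers, led by KRT10, summed to 3.84 to 41.3 CPM in C, 1.93 to 22.3 in DOP and 2.65 to 132 in WCOC, with DSG1 at 0 in 5 libraries, KRTDAP at 0 in 6 and TP63 at 0 in 2. KRT5 and KRT14 were planned as epidermis markers but are not among the 6. The 6 did not all move in the same direction. The mean of TP63 was 6.01 CPM in DOP and 0.78 in C, while that of KRT10 was 2.29 and 8.89. The macrophage markers, led by CSF1R, spanned 259 to 752 CPM in C, 186 to 464 in DOP and 125 to 345 in WCOC. Endothelial markers, led by PECAM1, lay between 762 and 947 CPM in C, 974.9 and 1329 in DOP, and 829 and 1356 in WCOC. Erythroid markers, led by HBB, reached 15841 CPM in a DOP library against at most 2815 in C and 3361 in WCOC. T cell markers, led by CD2, stayed at or under 18 CPM in every library. In bulk tissue, fewer cells of a type and less RNA per cell cannot be told apart.

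The promoters of PCK1 and AQP3 are shown because these genes had the highest WCOC levels relative to C among the 6 members. Each run holds the 250 bases before the gene start of the RefSeq annotation of Sscrofa11.1, read 5′ to 3′ on the strand of the gene. PCK1 (ENSSSCG00000007507) lies on the plus strand at chr17:57930507-57936523 and its window is chr17:57930257-57930506, while AQP3 (ENSSSCG00000040513) lies on the plus strand at chr10:33045374-33050285 and its window is chr10:33045124-33045373. The capitals mark the cAMP response element TGACGTCA in PCK1 and the TATA box TATAAA in AQP3.
PCK1: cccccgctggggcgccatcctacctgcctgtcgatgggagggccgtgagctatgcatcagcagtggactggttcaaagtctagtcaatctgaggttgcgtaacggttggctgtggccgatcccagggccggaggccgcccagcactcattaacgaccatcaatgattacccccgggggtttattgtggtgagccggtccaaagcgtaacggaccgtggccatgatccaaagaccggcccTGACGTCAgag
AQP3: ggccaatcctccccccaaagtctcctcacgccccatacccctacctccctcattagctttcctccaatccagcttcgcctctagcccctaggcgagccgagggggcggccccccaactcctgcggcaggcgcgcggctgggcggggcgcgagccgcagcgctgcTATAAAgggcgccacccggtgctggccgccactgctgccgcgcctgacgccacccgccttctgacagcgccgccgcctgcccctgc

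The 8 letters of the cAMP response element began 11 bases before the annotated start of PCK1 and were found on either strand in 1.70% of 19556 promoter windows of the same length. Of the 6 members, PCK1 was the one whose window held them. The variant TTACGTCA occurred in 0.547% of windows and in no member. The TATA box letters began 86 bases before the start of AQP3 and stood in 9.77% of windows. The nuclear receptor letters AGGTCA, present in 12.2% of windows, was found in GPD1, and their direct repeat with 1 spacer base (DR1), present in 0.0256%, was found in no member. The CCAAT letters, present in 31.9% of windows, were found in PCK2 and AQP3. These matches describe the letters of the windows, and binding at them was not tested.

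PCK1 was higher in WCOC than in the other diets. In C, PCK1 stood at 49.1, 71.2, 65.5, 51.8 and 79.3 CPM in pigs 1 to 5. In DOP it stood at 71.1, 120, 80.3, 274 and 95.6 CPM, and in WCOC at 311, 138, 319, 149 and 426 CPM. The lowest WCOC pig lay above the highest C pig, whereas DOP overlapped both diets and DOP 4 lay between the lower 2 and the upper 3 WCOC pigs. The lower WCOC pigs were WCOC 2 and WCOC 4, at 138 and 149 CPM.

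The mean PCK1 level was 63.4 ± 12.8 CPM in C, 128 ± 83.4 in DOP and 268 ± 123 in WCOC (SD, n = 5 each). The log2FC of PCK1 in WCOC vs. C was 2.08 with an SE of 0.39, a fold of 4.23, and in WCOC vs. DOP it was 1.07 with an SE of 0.38. Both are given without a test because the gene was chosen on them. Of all 14918 genes tested, 3.75% had WCOC values entirely above those of C. Leaving out any 1 library kept the WCOC vs. C value between 1.85 and 2.24, and within flow cell A it was 2.17. It was 2.09 with the macrophage markers as a covariate, where its SE was 0.59. These refits reuse the values on which PCK1 was chosen, so they too are a description and lend its rise no support. In DOP vs. C, a comparison that shares the C pigs, PCK1 had a log2FC of 1.01 with an SE of 0.38 and an adjusted p of 0.184 in edgeR's quasi-likelihood test, and of 0.0718 in DESeq2. That value was 0.53 without DOP 4 and 0.69 with flow cell as a covariate. In the libraries whose muscle markers summed to under 1000 CPM (3 of C, 2 of DOP and 5 of WCOC, a limit set after seeing the data, called the low muscle libraries from here on) it was 0.16, and there the PCK1 difference in WCOC vs. DOP was 1.83.

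**Figure D1:**
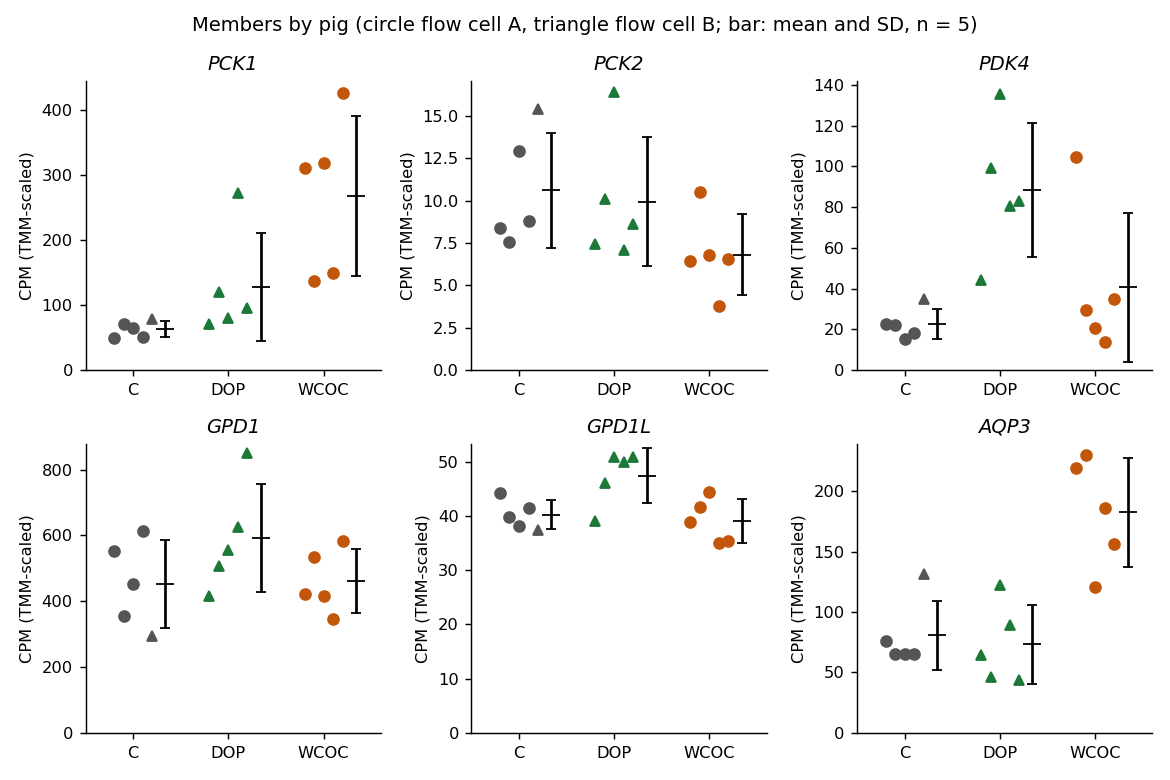
Level of each member in every pig, in CPM scaled by TMM factors (y axis from 0), by diet (x axis), with circles for flow cell A, triangles for flow cell B, and a bar for the mean and SD of 5 pigs. PCK1 lies at 138 CPM or above in the 5 WCOC pigs and at 79.3 or below in the 5 C pigs, and PDK4 lies at 44.3 or above in the 5 DOP pigs and at 34.7 or below in the C pigs.

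PCK2 makes phosphoenolpyruvate inside mitochondria and is encoded by another gene (ENSSSCG00000002009, minus strand, chr7:75187195-75197613). It stood at 8.39, 7.56, 12.9, 8.80 and 15.4 CPM in C, at 7.47, 10.1, 16.4, 7.10 and 8.61 in DOP and at 6.41, 10.5, 6.79, 3.81 and 6.55 in WCOC. The 3 diets overlapped, and 4 of the 5 WCOC pigs lay under all 5 C pigs. The log2FC of PCK2 was -0.10 (SE 0.29, adjusted p = 0.902) in DOP vs. C and -0.64 (SE 0.29, adjusted p = 0.170) in WCOC vs. C by edgeR, and neither passed. In WCOC vs. DOP it was -0.55 with an SE of 0.29 and an adjusted p of 0.233. With flow cell as a covariate, a fit in which C 5 alone ties C to flow cell B, the values were -0.63 (SE 0.45) in DOP vs. C and 0.16 (SE 0.55) in WCOC vs. DOP.

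Per kilobase of exon the isoforms differed in level. PCK1 had 24.0 CPM per kilobase in C and 102 in WCOC, whereas PCK2 had 4.41 in C and 2.83 in WCOC. Over all 15 libraries the order of mean levels per kilobase was GPD1 at 93.7 ± 26.2, PCK1 at 58.1 ± 45.2, PDK4 at 14.3 ± 11, GPD1L at 10.5 ± 1.33 and PCK2 at 3.79 ± 1.44 CPM per kilobase (SD over libraries). GPD1 and PCK1 overlapped in their spread, as did PDK4 and GPD1L. This order pools the diets and changed within them, as PCK1 at 102 stood above GPD1 at 86.0 CPM per kilobase in WCOC and GPD1L at 9.98 stood above PDK4 at 6.38 in C. AQP3 is left out of this order because its annotated exons span only 892 bases.

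PDK4 had its highest levels in DOP. The gene (ENSSSCG00000015334, minus strand, chr9:75246956-75260134) encodes a kinase that switches off pyruvate dehydrogenase, which spares pyruvate for oxaloacetate, and it is known as a gene of fasting. PDK4 stood at 22.9, 22, 15.2, 18.4 and 34.7 CPM in C and at 44.3, 99.2, 135, 80.6 and 83.1 CPM in DOP. All 5 DOP pigs lay above all 5 C pigs. In WCOC it stood at 104, 29.5, 20.8, 13.8 and 34.8 CPM, so that WCOC 1 lay inside the DOP range and the other 4 lay between 13.8 and 34.8 CPM, beside 15.2 to 34.7 in C.

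The log2FC of PDK4 in DOP vs. C was 1.97 with an SE of 0.46, and by edgeR its adjusted p of 0.0582 missed the limit of 0.05. DESeq2 gave an adjusted p of 0.00426 and called it. Of all genes tested, 1.7% had DOP values entirely above those of C. The difference was 1.96 (adjusted p = 0.105) with the muscle markers as a covariate and 1.35 (adjusted p = 0.587) with flow cell as a covariate. DOP 1 and DOP 3, with 35.1 and 218 CPM of muscle markers, had 44.3 and 135 CPM of PDK4. DOP 2, DOP 4 and DOP 5, with 10315, 5874 and 45951 CPM of these markers, had 99.2, 80.6 and 83.1 CPM. In the low muscle libraries, 2 of them from DOP, the difference was 1.83 (SE 0.74, adjusted p = 0.849). In that fit 0 of all genes were called. A relation of PDK4 to the muscle markers across libraries was not tested. In WCOC vs. C the log2FC of PDK4 was 0.84 (SE 0.45, adjusted p = 0.251), and it dropped to 0.13 without WCOC 1. In WCOC vs. DOP it was -1.12 (SE 0.45, adjusted p = 0.120), without WCOC 1 it was -1.84 with an adjusted p of 0.0098, and with flow cell as a covariate it was -0.30 (SE 0.92, adjusted p = 0.903). PDK4 overlaps ASB4 and an unnamed gene on the opposite strand. The libraries were strand-specific by the methods of the study, but the strand option of the counting step is not given in the sources used here.

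The glycerol 3-phosphate dehydrogenases were not called in any comparison. GPD1 (ENSSSCG00000000214, plus strand, chr5:16008179-16021676) is the NADH-dependent enzyme of the cytosol that closes the route. It stood at 553, 354, 452, 614 and 293 CPM in C, at 417, 508, 557, 626 and 851 in DOP and at 422, 536, 417, 346 and 585 in WCOC. The diets overlapped, with the highest value in DOP 5. The log2FC of GPD1 was 0.38 (SE 0.22, adjusted p = 0.396) in DOP vs. C, 0.02 (SE 0.22, adjusted p = 0.962) in WCOC vs. C and -0.36 (SE 0.22, adjusted p = 0.319) in WCOC vs. DOP. With flow cell as a covariate it was 1.01 (SE 0.38, adjusted p = 0.340) in DOP vs. C and -1.11 (SE 0.44, adjusted p = 0.341) in WCOC vs. DOP. Its counts are uncertain because a gene on the same strand overlaps it in the annotation, and so does one on the opposite strand.

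GPD1L, a related protein with the same reaction (ENSSSCG00000021977, plus strand, chr13:18126471-18176669), varied least of the 6 members, with a coefficient of variation of 12.7% over the libraries. It stood at 44.2, 39.9, 38.1, 41.4 and 37.5 CPM in C, at 39.1, 46.0, 50.9, 49.99 and 50.97 in DOP and at 39.0, 41.6, 44.5, 35 and 35.4 in WCOC. In DOP, 4 of 5 pigs lay above every C pig and DOP 1 lay among them. The log2FC was 0.24 (SE 0.09, adjusted p = 0.194) in DOP vs. C, -0.04 (SE 0.09, adjusted p = 0.811) in WCOC vs. C and -0.28 (SE 0.09, adjusted p = 0.0556) in WCOC vs. DOP. DESeq2 gave an adjusted p of 0.0304 for the last of these, at a size under the limit of 0.58.

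AQP3, an aquaglyceroporin of the cell membrane that passes water and glycerol, rose in WCOC. It stood at 76.4, 65.7, 65.4, 65.2 and 131 CPM in C, at 64.6, 46.4, 122, 89.2 and 44.2 in DOP and at 219, 230, 121, 186 and 156 in WCOC. In 4 of 5 WCOC pigs AQP3 lay above all C and DOP pigs, and WCOC 3 at 121 CPM lay just under C 5 and DOP 3. The means were 80.8 ± 28.7 CPM in C, 73.3 ± 32.8 in DOP and 183 ± 44.9 in WCOC (SD, n = 5 each).

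The log2FC of AQP3 in WCOC vs. C was 1.18 with an SE of 0.29, a fold of 2.26, and its adjusted p was 0.0221 by edgeR. In WCOC vs. DOP the log2FC was 1.32 with an SE of 0.29, a fold of 2.49, and the adjusted p was 0.0129. These comparisons share the WCOC pigs. In DOP vs. C it was -0.14 (SE 0.29, adjusted p = 0.846), and -0.84 (SE 0.41, adjusted p = 0.502) with flow cell as a covariate. The WCOC vs. DOP call was lost with flow cell as a covariate (adjusted p = 0.237), where all WCOC libraries lay on flow cell A and all DOP libraries on B, and with the muscle markers as a covariate (adjusted p = 0.0616). Of all genes 0.0067% and 2.89% were called in these fits. The WCOC vs. C call was lost without C 3 (adjusted p = 0.0614), without WCOC 1 (adjusted p = 0.0595) and under the replicate block (adjusted p = 0.0715). There 3.54%, 3.11% and 3.17% of all genes were called. Within flow cell A the WCOC vs. C value was 1.41 with an adjusted p of 0.00751. In the low muscle libraries the values were 1.05 (adjusted p = 0.0999) in WCOC vs. C and 0.96 (adjusted p = 0.313) in WCOC vs. DOP. AQP3 is also known from the epidermis, and the epidermis markers summed to 2.65, 3.75 and 3.27 CPM in WCOC 1, 3 and 4, where AQP3 stood at 219, 121 and 186 CPM. WCOC 2, with 28 CPM of epidermis markers, had the highest AQP3 of the 15 libraries at 230 CPM, and WCOC 5, with 132 CPM of them, had 156 CPM of AQP3. The markers do not include KRT5 and KRT14, and a relation of AQP3 to the markers across libraries was not tested. With the epidermis markers as a covariate the WCOC vs. C log2FC was 1.18 with an adjusted p of 0.0277. With the macrophage markers as a covariate it was 1.54 with an adjusted p of 0.126. No call remained in that fit, where 0.375% of all genes were called.

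**Figure D2:**
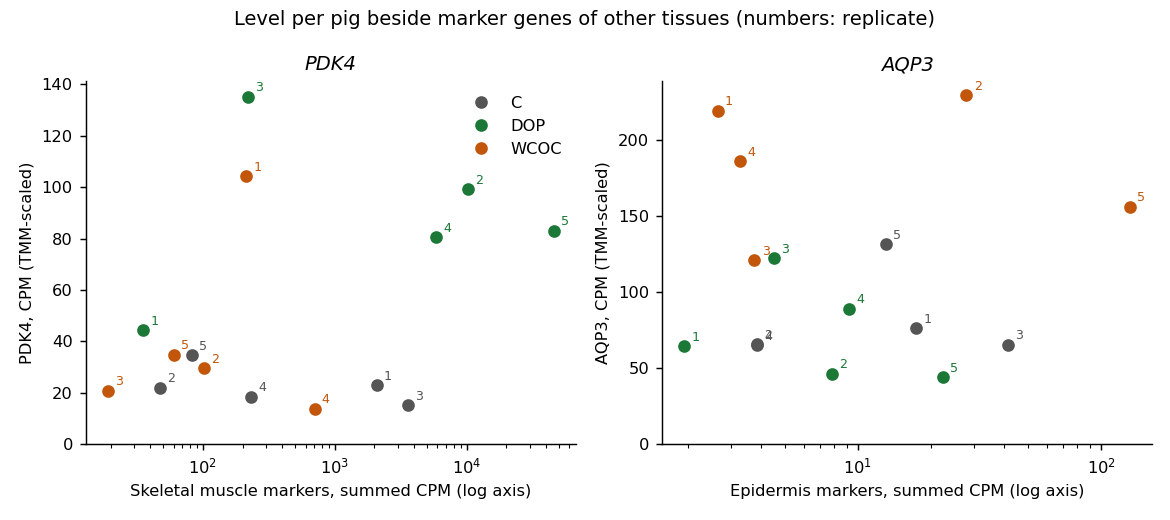
PDK4 against the summed skeletal muscle markers and AQP3 against the summed epidermis markers, 1 point per pig coloured by diet and numbered by replicate, both in CPM, with a log x axis. PDK4 lies at 44.3 and 135 CPM in DOP 1 and DOP 3, which have 35.1 and 218 CPM of muscle markers, and AQP3 lies at 219 CPM in WCOC 1, which has 2.65 CPM of epidermis markers.

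Counted over the members, 0 of 6 were called in DOP vs. C by edgeR, beside 0.764% of all genes, while 3 had an unadjusted p under 0.05, beside 17.6% of all genes, and DESeq2 called 1, PDK4, beside 3.4%. The 3 with an unadjusted p under 0.05 were PCK1, PDK4 and GPD1L. PCK1 is not independent of its choice here, because the rise that chose it was read against the same C pigs. A gene was called when its adjusted p lay under 0.05 and its log2FC was 0.58 or more in either direction. In WCOC vs. C, 1 of the 5 members other than PCK1 was called, beside 6.25% of all genes in either direction and 2.33% higher. In WCOC vs. DOP 1 of 5 was called, beside 7.76% in either direction and 2.65% higher. In both cases the gene was AQP3, and it was higher.

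**Figure D3:**
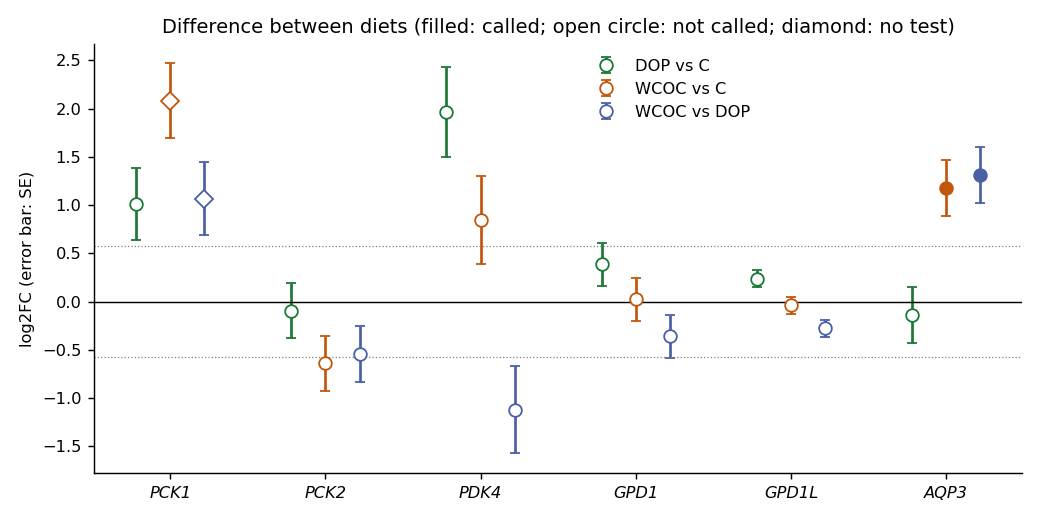
log2FC of each member (x axis) in the 3 diet comparisons (colours), with the SE as error bar and dotted lines at the limits of 0.58 in size. Filled points were called by edgeR, open circles were not, and the diamonds of PCK1 carry no test. AQP3 is filled at 1.18 and 1.32, and PDK4 in DOP vs. C is open at 1.97.

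The genes around the route were described through 10 lists with 95 genes, of which 84 were tested. The lists, too, were chosen with earlier results of these data known. In WCOC vs. C, 2 were called higher and 9 lower, or 13.1% beside 6.25% of all genes, of which 3.93% were lower. The median log2FC of all genes was 0.00. The supply of pyruvate and oxaloacetate held most of the lower genes, with 5 of 10 lower, none higher and a median of -0.53. ME1, the malic enzyme that makes NADPH and pyruvate, fell by 1.55 on the log2 scale (SE 0.30, adjusted p = 0.00739), from 1660 ± 523 CPM in C to 569 ± 271 in WCOC. The mitochondrial carriers SLC25A11, for oxoglutarate and malate, and SLC25A1, for citrate, fell by 0.94 and 0.93. SLC25A11 did so at the low level of 2.27 ± 0.60 CPM in C and 1.17 ± 0.24 in WCOC. The mitochondrial malate dehydrogenase MDH2 fell by 0.78. GOT2, the mitochondrial aspartate aminotransferase, fell by 0.61 and was the last of the 5 lower genes. PC, which makes oxaloacetate from pyruvate, was the most abundant gene of the list and was not called. Its log2FC was 0.09 (SE 0.23, adjusted p = 0.848 by edgeR).

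In the pyruvate dehydrogenase list, 1 of 11 genes was called in WCOC vs. C and the median was -0.19. The gene was PDHB, the beta subunit of the E1 enzyme, which fell by 1.35 on the log2 scale (SE 0.26, adjusted p = 0.00678), from 457 ± 110 CPM to 179 ± 65.5 without overlap between the diets, as for 3.87% of all genes in that direction. In glucose uptake and glycolysis 2 of 15 were lower, PGAM1 at -0.65 and HK2 at -0.63, and the median was -0.59. In lipolysis 1 of 8 was called, ADRB1, the beta-1 adrenergic receptor, which rose by 1.39 (SE 0.39, adjusted p = 0.0366) at the low level of 8.55 ± 5.77 CPM in WCOC. Among 7 other PPARG target genes of fat, ADIPOQ, the adipokine adiponectin, rose by 0.66 and ACSL1, which activates fatty acids, fell by 0.87. No gene was called among 4 of gluconeogenesis, 6 of the glycerol phosphate shuttle and other aquaporins, 6 of glycerol 3-phosphate acylation, 12 regulators of PCK1 transcription and 5 of the insulin signal. Their most abundant genes had log2FC values of -0.01 (FBP2), 0.03 (AQP1), -0.39 (DGAT2), -0.15 (CEBPA) and 0.14 (AKT2). Over the 5 lists without a call, the medians lay between -0.26 and 0.26.

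These counts moved with the fit, as did those of all genes. With the macrophage markers as a covariate, 0 of the 84 genes were called in WCOC vs. C, beside 0.375% of all genes, and in the low muscle libraries 4 were (MDH2, ME1, PDHB and PKM), beside 2.31% of all genes. Over the 15 fits that left out 1 library, between 4 and 16 were called, and ME1, PDHB and SLC25A11 were called in all 15. MDH2 and PGAM1 were called in 14 of them, ADIPOQ in 11, ADRB1, GOT2 and SLC25A1 in 9, HK2 in 4 and ACSL1 in 3. The count was 4 without WCOC 1, 5 without WCOC 4 or without C 3, and 7 without C 1 or without C 4. In these fits 3.11%, 3.96%, 3.54%, 5.6% and 5.58% of all genes were called, in the same order.

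In DOP vs. C, 0 of the 84 genes were called by edgeR, beside 0.764% of all genes. An unadjusted p under 0.05 was found for 20, beside 17.6% of all genes, and DESeq2 called 4 (PFKM, AQP9, PPARGC1A and ANGPTL4), beside 3.4% of all genes. The list medians lay between -0.04 for the regulators of PCK1 transcription and 0.36 for glycolysis, beside 0.01 for all genes. The most abundant genes had log2FC values of -0.08 (PC), 0.19 (PDHA1), 1.13 (GAPDH), 0.95 (FBP2), -0.24 (AQP1), 0.14 (PLIN1), -0.34 (CEBPA), 0.11 (AKT2) and 0.16 (LPL), and DGAT2 had 3960 CPM in DOP and 3970 in C.

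In WCOC vs. DOP, 2 of the 84 genes were higher and 18 lower, or 23.8% beside 7.76% of all genes, of which 5.11% were lower. Of the supply of pyruvate and oxaloacetate 6 of 10 were lower, led by SLC25A1 at -1.25, ME1 at -1.23, MDH2 at -1.0 and GOT2 at -0.89. PC was not called, at 0.17 (adjusted p = 0.684 by edgeR). PDHB had a log2FC of -1.62 and PDHA1 one of -0.58. In glycolysis 6 of 15 were lower, led by PFKM at -3.39, PKM at -2.0, GAPDH at -1.91 and PGK1 at -0.98. PGP, a phosphatase that acts on glycerol 3-phosphate, was lower at -0.84, and the coactivator PPARGC1A was lower at -2.29. The values of PPARGC1A spanned 0.201 to 9.80 CPM in DOP and 0.472 to 0.947 in WCOC, and its call held in 2 of the 15 fits that left out 1 library. G0S2, which inhibits the lipase of triglyceride breakdown, rose by 1.40, and PLIN4, which coats lipid droplets, rose by 0.70. ACSL1 fell by 1.26 and ANGPTL4, an inhibitor of lipoprotein lipase, by 0.65. GAPDH had 3235 ± 3609 CPM in DOP and 863 ± 233 in WCOC. The skeletal muscle markers summed to 35.1 to 45951 CPM in DOP and 19 to 702 in WCOC. A relation of the glycolysis genes to these markers across libraries was not tested. In the low muscle libraries 0 of the 84 genes were called, beside 0.6% of all genes, and with flow cell as a covariate 0 were called, beside 0.0067%. With the muscle markers as a covariate 11 were called (10 lower), beside 2.89%. Of the glycolysis genes these included HK1 and PGAM1, but not PFKM, PKM, GAPDH or PGK1. The count was 13 without DOP 5, 11 without WCOC 1 or without WCOC 5 and 10 without WCOC 4. In these fits 4.64%, 4.25%, 5.14% and 4.65% of all genes were called, in the same order. In all 15 fits that left out 1 library 7 genes were called (ACSL1, GOT2, MDH2, ME1, PDHB, PKM and SLC25A1).

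**Figure D4:**
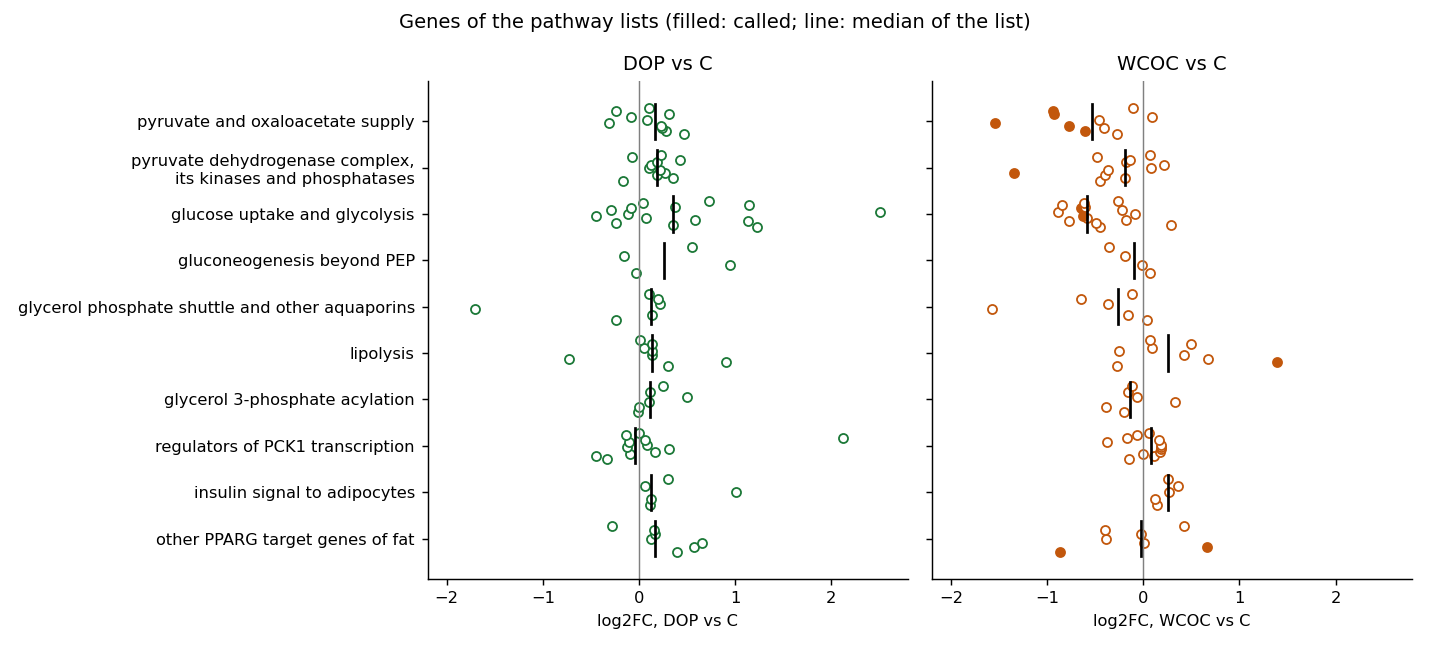
log2FC of the 84 tested genes of the 10 pathway lists (1 row per list) in DOP vs. C and in WCOC vs. C, with filled points for called genes and a line at the median of each list. No point is filled in DOP vs. C, and the supply of pyruvate and oxaloacetate holds 5 of the 9 lower filled points in WCOC vs. C.

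The genes whose pattern was most like that of PCK1 were sought among 11132 genes with a symbol and a mean of at least 1 CPM, by Pearson's r of log2 CPM over the 15 libraries. They were SRCIN1 (r = 0.855), an inhibitor of Src kinase, C1orf210 (0.853), TMC1 (0.851), a channel subunit of hair cells, ICA1 (0.847), an autoantigen of islet cells, and OR6N2 (0.838), an olfactory receptor. After the diet means were removed the values were 0.730, 0.500, 0.522, 0.626 and 0.615 in the same order. The points share library and depth, and the diets contribute to the first set of values. The second set is not independent of the pick either, because the genes were picked on r over the same libraries. The diet means of SRCIN1, C1orf210, TMC1 and OR6N2 were low, between 1.35 and 6.40 CPM. AQP3 ranked 717 with r = 0.549, and its value after removal of the diet means was -0.03.

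Within diets PCK1 was set against each of the 5 other members over the 15 libraries, with values centred on the diet mean and an exact permutation of the libraries within diets. Pearson's r and Spearman's rho with PDK4 were 0.322 and 0.346, with exact two-sided p of 0.358 and 0.276. For PCK2 they were -0.0959 and -0.025, for GPD1 0.0442 and 0.0214, for GPD1L 0.0923 and 0.0429, and for AQP3 -0.0278 and -0.129. None passed, as the p adjusted over the 5 relations was 0.938 for each r and 0.944 for each rho by the exact permutation. Without the 2 libraries farthest from the median of PCK1, WCOC 5 and WCOC 3, r changed sign for GPD1 (-0.0933) and AQP3 (0.190).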

How the data were processed

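RNA of backfat from 15 pigs was sequenced as paired ends. The authors mapped the reads to Sscrofa11.1 by HISAT2 and used HTSeq to count reads of each Ensembl gene, and the deposited values are raw counts, neither normalized nor pooled. The alignment was set for strand-specific reads, while the annotation release and the strand option of the counting are not given in the sources used here. Diets and replicate numbers come from the labels. The 5 summary lines of each library, 23.4% to 32.8% of it, stayed out of library sizes and tests. Totals on genes spanned 22373715 to 34745218 counts, and the members had between 120 and 24400 counts per library.

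Counts were analysed with edgeR 4.0.16 in R 4.3.3. Genes were kept by filterByExpr (14918 genes), scaled by TMM, and fitted over the 15 libraries by quasi-likelihood, each diet having 1 mean (common dispersion 0.0814). Tests were two-sided, and p-values were adjusted over the 14918 genes after Benjamini and Hochberg. log2 CPM used a prior count of 1. Symbols came from a reference table (14864 matched), and positions, exon lengths and promoters from RefSeq on Sscrofa11.1. DESeq2 1.42.0, limma-voom (limma 3.58.1), other normalizations and filters, covariates, a replicate block and fits without 1 library were alternatives. The workflow was tested on simulated data.

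The members and lists were chosen with earlier results of these data known. Named are the members, for each list up to 4 called genes of largest log2FC or, where none was called, the most abundant one, and the 5 genes most like PCK1. Other names given for counts, and PC in the WCOC comparisons, were chosen after their values were seen.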

Additional observations from a re-analysis of the deposited data

Results flagged for a closer look

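Among the 18 groups of 5 libraries formed by 6 members and 3 diets, 3 held a library far from the others, its gap to the nearest one exceeding 0.71 of the range of the group. Chance flags about 1 in 20 groups. PCK1 stood at 274 CPM in DOP 4, where the next highest DOP library had 120 CPM. PDK4 stood at 104 CPM in WCOC 1, where the next had 34.8 CPM. AQP3 stood at 131 CPM in C 5, where the next had 76.4 CPM, and C 5 was the C library of flow cell B.

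The change of AQP3 against C differed between the olive diets by a log2FC of 1.32, tested as WCOC vs. DOP by edgeR (adjusted p = 0.0129), with the WCOC values above every DOP library in 4 of 5 pigs.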

How the results depend on the processing

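AQP3 kept its direction in WCOC vs. C and in WCOC vs. DOP under every alternative run, but its call did not hold in all. In WCOC vs. C the number of members called went from 1 to 0 with the macrophage markers as a covariate, with the low muscle libraries only and with the replicate block, where AQP3 had a log2FC of 1.20 (adjusted p = 0.0715). The share called over all genes went from 6.25% to 0.375%, 2.31% and 3.17% in these fits. The number of members called ranged from 0 to 1 when 1 library was left out. It was 0 without C 3 (AQP3 1.10, adjusted p = 0.0614) and without WCOC 1 (1.10, 0.0595), beside 3.54% and 3.11% of all genes. In WCOC vs. DOP the number went from 1 to 0 with flow cell as a covariate (AQP3 2.26, adjusted p = 0.237), with the muscle markers as a covariate (1.13, 0.0616) and with the low muscle libraries only. The share over all genes went from 7.76% to 0.0067%, 2.89% and 0.6% in these fits. With 1 library left out the number ranged from 1 to 2, with PDK4 added without WCOC 1, beside 4.25% of all genes. In DOP vs. C the number was 1 by DESeq2, beside 3.4% of all genes. It ranged from 0 to 1 with 1 library left out, with PDK4 called without WCOC 1 (adjusted p = 0.0302), beside 0.598%. The cause was not tested.

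Pathway genes called in DOP vs. C went from 0 to 4 by DESeq2 and 1 with flow cell as a covariate, beside 3.4% and 1.14% of all genes. In WCOC vs. C they went from 11 to 0 with the macrophage markers, 4 in the low muscle libraries and 5 with the replicate block. Of all genes 0.375%, 2.31% and 3.17% were called there. With 1 library left out they ranged from 4 to 16, beside 3.11% and 6.4% of all genes in the same fits. In WCOC vs. DOP they went from 20 to 0 with flow cell, 0 in the low muscle libraries, 11 with the muscle markers and 6 with the replicate block. Of all genes 0.0067%, 0.6%, 2.89% and 3.76% were called there. With 1 library left out they ranged from 10 to 27, beside 4.65% and 8.43%. These alternatives other than DESeq2, those on low muscle libraries and those on epidermis markers were chosen after seeing the data.

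The following values changed sign. PCK2 in DOP vs. C was 0.25 with the macrophage markers, 0.10 with the epidermis markers and 0.17 in the low muscle libraries, and -0.36 to 0.0758 with 1 library left out. AQP3 in DOP vs. C was 0.0626 with the macrophage markers and 0.0882 in the low muscle libraries, and -0.41 to 0.11. GPD1 in WCOC vs. C was -0.10 with flow cell, -0.18 with the macrophage markers and -0.11 within flow cell A, and -0.10 to 0.15. GPD1L in WCOC vs. C was -0.0911 to 0.00171, and PCK2 in WCOC vs. DOP was 0.16 with flow cell, from -0.55. The correlations with PCK1 changed sign for PCK2 (0.0237) and GPD1L (-0.125) within flow cell A and for GPD1 (-0.0933) and AQP3 (0.190) without the 2 farthest libraries. With 1 library left out they spanned -0.349 to 0.124 for PCK2, -0.102 to 0.152 for GPD1, -0.163 to 0.256 for GPD1L and -0.268 to 0.136 for AQP3.

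The replicate numbers were not treated as pairs. The deviations of same-numbered libraries correlated between -0.495 and 0.345, and at most 2 of 5 pairs per comparison exceeded 0.1. The best match had the same number for 0 of 5 libraries in DOP vs. C, 1 in WCOC vs. C and 2 in WCOC vs. DOP. With 5 pairs per comparison these values cannot exclude a pairing. Under the replicate block the calls over all genes were 0 against 114 in DOP vs. C, 473 against 933 in WCOC vs. C, and 561 against 1158 in WCOC vs. DOP. The lowest member counts, 120 per library for PCK2, were well above 0, and no member was at the limit of depth.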
